A study of Mus musculus with 6 samples.

Results

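The genes of elastic fibres and microfibrils followed here were Eln, Fbn1, Fbn2, Fbln1, Fbln2, Fbln5, Mfap2, Mfap4, Mfap5 and Emilin1, chosen by name, and all 10 were found among the 54532 genes of the deposited table. RNA sequencing had been carried out on MC3T3-E1 cells, a mouse pre-osteoblast line that lays down mineralized matrix, after 3 days of osteogenic induction. All 6 samples were kept in osteogenic medium, which holds β-glycerophosphate, ascorbic acid and the glucocorticoid dexamethasone. Of these, 3 received nothing further and 3 also received 0.2 mM metformin, the biguanide drug of type 2 diabetes. The duration is from the study's methods, and the dose is the one that its results give for the sequenced cells. The cells are 1 immortal line, and no group without osteogenic medium is analysed here.

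Elastic fibres are built on microfibrils, thin filaments of fibrillin (Fbn1, Fbn2) that carry the microfibril-associated glycoproteins (Mfap2, Mfap5) and Mfap4. Elastin (Eln) is secreted as a soluble precursor, set down on the microfibrils with the help of fibulins (Fbln1, Fbln2, Fbln5) and emilins (Emilin1), and crosslinked by lysyl oxidases. Microfibrils also occur without elastin, in bone among other tissues, where they hold latent TGF-β and bone morphogenetic proteins in the matrix.

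The make-up of the cells was examined first. Runx2 and Sp7 are the transcription factors that define the osteoblast lineage. Runx2 lay at 28.6 to 34.1 FPKM (reads scaled by gene length and library size) in osteogenic medium and at 25.8 to 27.4 FPKM with metformin. Sp7 lay at 36.8 to 47.1 FPKM without and 52.1 to 54 FPKM with metformin. Neither difference passed the test (limma-trend, adjusted p = 0.243 and 0.0586). Of 12 osteoblast markers, 11 had a mean FPKM of at least 0.5 and were tested. With metformin 3 were called higher (Dlx5, Col1a1 and Col1a2) and 3 lower (Ibsp, Spp1 and Dmp1). Of all 12681 tested genes, 13.2% were called higher and 9.28% lower. The summed level of the 12 markers was 10113 to 11879 FPKM in osteogenic medium and 6875 to 7274 with metformin. Spp1, osteopontin, carried that fall. The 11 other markers summed to 2711 to 3691 FPKM without and 4171 to 4547 FPKM with metformin, most of it Col1a1 and Col1a2. These rose from means of 1339 and 969.6 FPKM to 2487 and 1444 FPKM, while Ibsp fell from 814 to 265 FPKM and Dmp1 from 74.8 to 37.5 FPKM. Among the 11 tested osteoblast markers, the log2 fold change was negative for 7 and positive for 4. The 3 endothelial and 3 skeletal muscle markers summed to at most 0.121 and 0.0176 FPKM, and of the latter Myod1 and Myog were at 0 in every sample. The summed adipocyte markers were 1.76 to 3.18 and 2.1 to 2.45 FPKM without and with metformin, the blood cell markers 1.96 to 2.15 and 1.06 to 1.28, and the chondrocyte markers 26.6 to 39.9 and 28.7 to 30.4. Nearly all of the blood cell sum was Cd68, with means of 2.04 and 1.17 FPKM, which was called lower. The other blood cell markers, Ptprc and Adgre1, had at most 6 reads in a sample. The 4 smooth muscle markers summed to 188 to 267 FPKM without and 1183 to 1217 FPKM with metformin, nearly all of it Acta2, while Cnn1 and Myh11 stayed at or under 0.075 FPKM. Acta2 was called higher, and so was Tagln, which had a control mean of 0.436 FPKM and entered the test only through its level with metformin. The osteoblast, smooth muscle and blood cell sums did not overlap between the groups, and their part in the results that follow was not tested. The adipocyte, chondrocyte and endothelial sums overlapped. Only 1 of 5, 2 of 3 and 0 of 3 of their genes were tested, and none of those tested was called. Replicate 1 in osteogenic medium stood apart. Across genes, which are not independent replicates, its log2 levels had correlations of 0.96 and 0.952 with the other controls, which had 0.988 with each other, and the more GC-rich a gene, the further it fell below them (Spearman's rho -0.668 between deviation and GC content).

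With metformin, Fbln2, Fbln5, Fbn1 and Mfap5 were higher than in osteogenic medium alone, by 1.47 to 1.81 times in mean FPKM. The calls of Fbn1 and Mfap5 were lost in 7 of 14 alternative fits, among them those without any 1 of 5 of the 6 samples, which left 2 members called. Fbn2 and Emilin1 did not pass the test, and Eln, Fbln1, Mfap2 and Mfap4 were barely detected in either group. So 6 of the 10 members had a mean FPKM of at least 0.5 and were tested, and 4 were called higher and 0 lower at an adjusted p under 0.05 by limma-trend, where 13.2% of all 12681 tested genes were called higher and 9.28% lower. The 3 samples with metformin lay above all 3 controls for 5 of the 6, against 23.6% of all tested genes. The median log2 fold change was 0.53 over the 6 members and 0.0053 over all tested genes. In bulk RNA, a change in the number of cells that express a gene cannot be told apart from a change in RNA per cell.

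**Figure D1:**
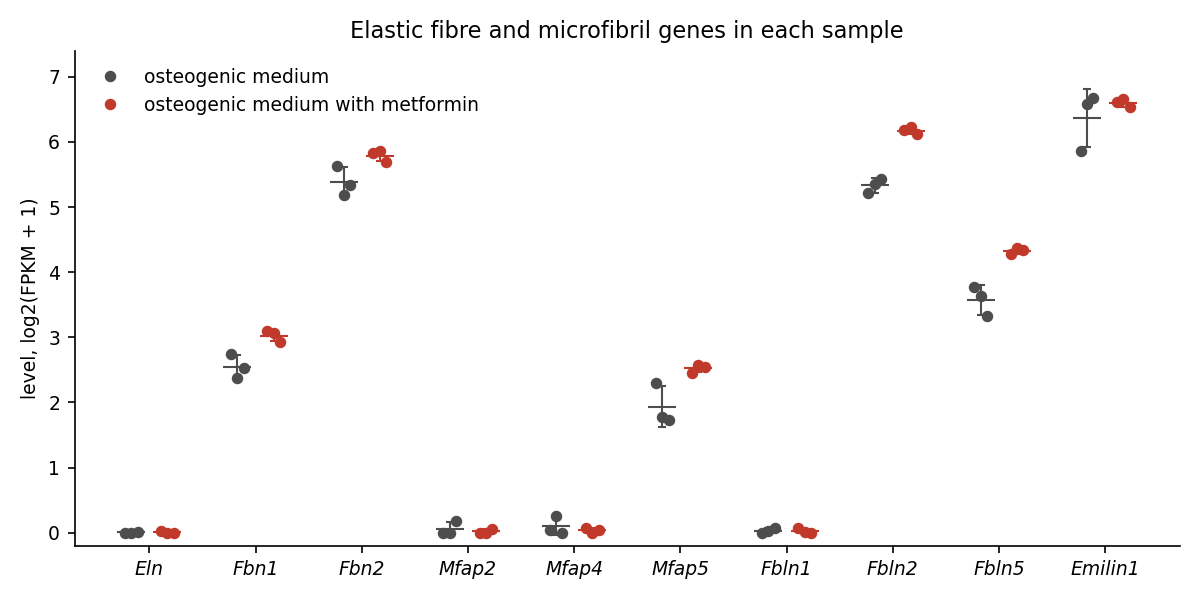
Level of each of the 10 genes as log2(FPKM + 1), with 1 point per sample and the mean and SD of the 3 samples of each group. Eln, Mfap2, Mfap4 and Fbln1 lie at or near 0 in both groups, and the metformin points lie above the control points for Fbn1, Fbn2, Mfap5, Fbln2 and Fbln5.

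Elastin itself was nearly absent. Eln (chromosome 5, 134702593 to 134747323, minus strand) had 0, 0 and 1 recovered reads in osteogenic medium and 3, 0 and 0 with metformin. The libraries hold 18399861 to 22111790 reads each, so that every sample was at or under the limit of 3 reads taken as the smallest signal that these depths can show. Mfap2, the glycoprotein that binds most fibrillin microfibrils (chromosome 4, 141010418 to 141015984), had 0, 0 and 3 reads in osteogenic medium and 0, 0 and 1 with metformin. Fbln1, a fibulin of basement membranes and elastic fibres (chromosome 15, 85205949 to 85286535), had 0, 2 and 4 reads in osteogenic medium and 4, 1 and 0 with metformin. Mfap4 (chromosome 11, 61485431 to 61488900), a fibrinogen-domain protein of elastic fibres, had 1, 8 and 0 reads in osteogenic medium and 2, 0 and 1 with metformin. Mfap4 overlaps Mapk7 on the other strand, which had 5083 reads over the 6 samples, and whether counting used strand is not stated. No difference between the groups was detectable for these 4 genes at this depth, and no fold is given.

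The fibrillins form the microfibril core. Fbn1 (chromosome 2, 125300594 to 125507993, minus strand), the fibrillin that predominates in adult tissue, had 5.69, 4.17 and 4.77 FPKM in osteogenic medium and 7.51, 7.38 and 6.59 FPKM with metformin. All 3 metformin samples lay above the controls, among which replicate 1 was highest. The means were 4.87 ± 0.764 and 7.16 ± 0.499 FPKM (SD, n = 3 each), and the fold change was 0.48 on the log2(FPKM + 1) scale, with a standard error of 0.12 (limma-trend, adjusted p = 0.0273). With the replicate block the adjusted p was 0.057 and the call was lost. It was also lost without any 1 of osteogenic medium replicates 2 and 3 or the metformin replicates, where the log2 fold change was 0.39 to 0.53. Gm9913, which is listed as protein-coding and overlaps Fbn1 on the other strand, shares 2442 identical bases with a Fbn1 transcript. It had 5 reads in all, against 8772 for Fbn1.

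Fbn2 (chromosome 18, 58008623 to 58209926, minus strand), a fibrillin best known from developing tissue, was the more abundant one per length. It had 48.4, 35.2 and 39.6 FPKM in osteogenic medium and 55.6, 56.8 and 50.8 FPKM with metformin. The groups did not overlap, but replicate 1 in osteogenic medium came close to the lowest metformin sample. The means were 41.1 ± 6.72 and 54.4 ± 3.15 FPKM (SD, n = 3), and the log2 fold change of 0.41 had a 95% interval of 0.095 to 0.72 before adjustment and did not pass the test (adjusted p = 0.0688). Without osteogenic medium replicate 1 it was 0.53 and passed (adjusted p = 0.00254). In FPKM, Fbn2 stood at 8.52, 8.46 and 8.31 times Fbn1 in the 3 control samples and at 7.4, 7.69 and 7.71 times with metformin. On the log2(FPKM + 1) scale this within-sample difference was 2.84 ± 0.043 (SD, n = 3) without and 2.76 ± 0.027 with metformin, a change of -0.075 whose exact two-sided permutation p of 0.1 is the smallest that 3 against 3 samples can give. It remained 0.1 when adjusted over the 5 pairs compared.

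Mfap5 (chromosome 6, 122505845 to 122529290), the second microfibril-associated glycoprotein, had 3.94, 2.43 and 2.31 FPKM in osteogenic medium and 4.48, 4.95 and 4.82 FPKM with metformin. Replicate 1 was again the highest control and lay nearest to the metformin samples, which stayed above it. The means were 2.89 ± 0.906 and 4.75 ± 0.242 FPKM (SD, n = 3), and the fold change was 0.59 on the log2 scale, with a standard error of 0.16 (limma-trend, adjusted p = 0.0434). The call was lost with the replicate block (adjusted p = 0.0756) and without any 1 of the same 5 samples as for Fbn1, where the log2 fold change was 0.48 to 0.62. Without osteogenic medium replicate 1 it was 0.77. Of the paired glycoproteins, Mfap5 was thus measured at 163 to 387 reads per sample and Mfap2 at 0 to 3.

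Emilin1 (chromosome 5, 30913402 to 30921277), a glycoprotein that sits where elastin meets the microfibril, had 56.8, 94.9 and 101 FPKM in osteogenic medium and 96.9, 100.1 and 92 FPKM with metformin. The groups overlapped, and replicate 1 in osteogenic medium was far below the other 5 samples. The means were 84.1 ± 23.8 and 96.3 ± 4.07 FPKM (SD, n = 3), and the log2 fold change of 0.24 had a 95% interval of -0.28 to 0.75 (adjusted p = 0.48 by limma-trend). Without that replicate the log2 fold change was -0.022 (adjusted p = 0.801), so the sign rested on it. The longest Emilin1 transcript has a GC content of 61.1%, where the median tested gene has 49.5%. Correcting each library for GC content moved the log2 level of replicate 1 from 5.85 to 6.32 and those of the other controls from 6.58 and 6.67 to 6.47 and 6.45. The log2 fold change was then 0.14 and did not pass the test (adjusted p = 0.174).

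Of the tested members, the fibulins had the largest fold changes. Fbln2 (chromosome 6, 91212455 to 91272540), which binds fibronectin, fibrillin and tropoelastin, had 36, 40.1 and 42.3 FPKM in osteogenic medium and 71.4, 74.1 and 68.4 FPKM with metformin. No control came near the metformin samples. The means were 39.5 ± 3.15 and 71.3 ± 2.89 FPKM (SD, n = 3), a rise of 1.81 times, or 0.84 on the log2 scale, with a standard error of 0.093 (limma-trend, adjusted p = 0.00133). Fbln2 was called higher in all 14 alternative fits, with log2 fold changes of 0.78 to 0.89 when 1 replicate was left out.

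Fbln5 (chromosome 12, 101746565 to 101819055, minus strand), which ties elastin and its crosslinking enzymes to microfibrils and to integrins, had 12.6, 11.4 and 9 FPKM in osteogenic medium and 18.4, 19.7 and 19.2 FPKM with metformin. The metformin samples lay close together and above every control. The means were 11 ± 1.81 and 19.1 ± 0.642 FPKM (SD, n = 3), a rise of 1.74 times, or 0.76 on the log2 scale, with a standard error of 0.12 (limma-trend, adjusted p = 0.00663). It too was called in all 14 alternative fits, with log2 fold changes of 0.63 to 0.85 when 1 replicate was left out.

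**Figure D2:**
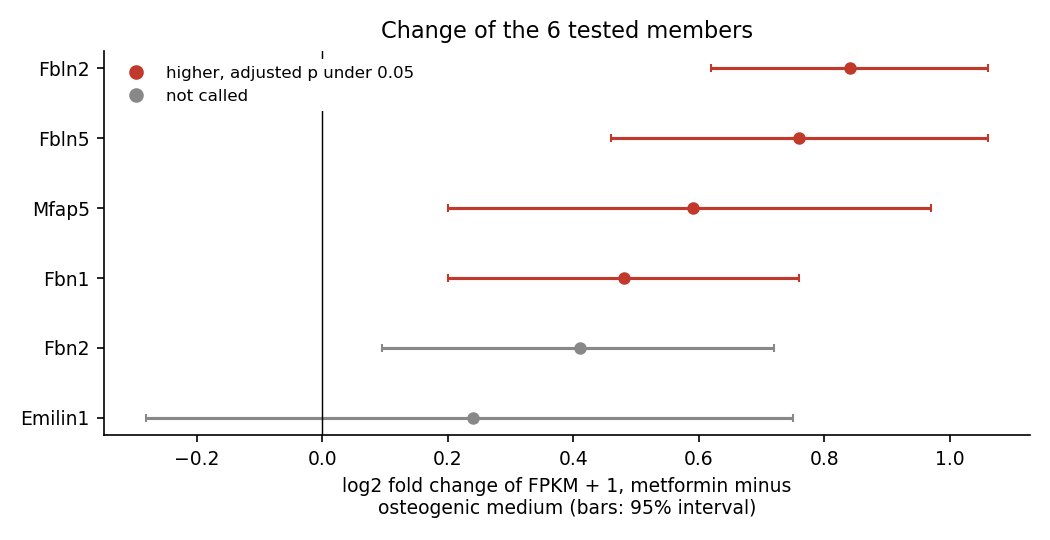
Log2 fold change of log2(FPKM + 1) with its 95% interval for the 6 tested members. Fbln2, at 0.84, and Fbln5, at 0.76, have intervals that start at 0.62 and 0.46, while the interval of Emilin1 reaches from -0.28 to 0.75.

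Sequence upstream of the starts of a fibulin that was expressed and of one that was not is shown because the family split in this way. RefSeq promoter sequence (GRCm38.p6) was held for 6 of the 10 members, Emilin1, Fbln1, Fbln2, Fbln5, Fbn1 and Mfap2. The 120 bases before the start site are given, 5′ to 3′ on the gene's strand, for starts where these bases hold no exon of the gene in GENCODE M21, and capitals mark a match to the GC box searched. The outer Fbln5 stretch is chr12:101819120-101819239, the inner one chr12:101818485-101818604 and that of Fbln1 chr15:85205829-85205948.
Fbln5, outer start: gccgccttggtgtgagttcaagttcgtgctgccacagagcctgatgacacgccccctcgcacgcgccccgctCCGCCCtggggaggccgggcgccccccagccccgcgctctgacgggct
Fbln5, inner start: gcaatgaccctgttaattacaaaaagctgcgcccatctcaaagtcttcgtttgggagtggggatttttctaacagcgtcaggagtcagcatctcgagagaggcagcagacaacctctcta
Fbln1: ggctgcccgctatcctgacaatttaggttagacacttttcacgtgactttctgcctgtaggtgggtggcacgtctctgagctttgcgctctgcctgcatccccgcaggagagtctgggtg

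In the 250 bases before each start, 5 motifs were searched on both strands, the TATA box (TATAAA), the GC box (GGGCGG), the CCAAT box (CCAAT), an AP-1 motif (TGANTCA) and a TEAD motif (GGAATG). They are held by 12.4%, 32.7%, 33.8%, 6.75% and 12.6% of 32851 such windows over all genes. The outer start of Fbln5 held 2 GC boxes, of which 1 lies in the stretch shown, and 1 CCAAT box, and the inner start held none of the 5 motifs. The starts of Fbln2 and Fbn1 each held 1 GC box, and that of Emilin1 held none of the motifs. For these genes, all 120 bases before the start lie in exons of the same gene in GENCODE M21. Of the genes not tested, the pair of Mfap2 starts held a CCAAT box and a TEAD motif, and 2 GC boxes, and the Fbln1 start shown held none of the 5 while its other start held 1 GC box. The 120 bases before the Mfap2 starts hold 6 and 44 such exon bases, and those before the other Fbln1 start hold 59. No AP-1 motif and no TATA box was found in these windows. Genes that rose and genes that were barely detected thus both held the GC box.

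The order of the mean levels per length was nearly shared by the groups. In osteogenic medium Emilin1 was highest, followed by Fbn2, Fbln2, Fbln5, Fbn1 and Mfap5, and the samples of Fbn2 and Fbln2 overlapped while the other neighbours did not. Fbn2 stood above Fbln2 there only in replicate 1, at 48.4 against 36 FPKM, and below it in the other controls, at 35.2 against 40.1 and 39.6 against 42.3 FPKM. With metformin Fbln2 stood above Fbn2, and the samples of all 6 genes were apart from their neighbours. The 4 other members overlapped each other in both groups. The summed level of the 10 members was 163, 188 and 199 FPKM in osteogenic medium and 254, 263 and 242 FPKM with metformin, so that the groups did not overlap.

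As shares of that sum, Fbln2 made up 21.3% to 22% of the FPKM in osteogenic medium and 28.1% to 28.3% with metformin. Emilin1 made up 34.7% in osteogenic medium replicate 1, 50.4% and 50.6% in the other controls and 38% to 38.1% with metformin. Fbn2 made up 29.6%, 18.7% and 19.9% without and 21% to 21.9% with metformin, so replicate 1 lay on the other side of the metformin samples than the other controls for both genes. Emilin1, Fbn2 and Fbln2 together held 86.4% to 91.8% of the sum in every sample. Shares depend on each other and on the depth of all members, and they were not tested.

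**Figure D3:**
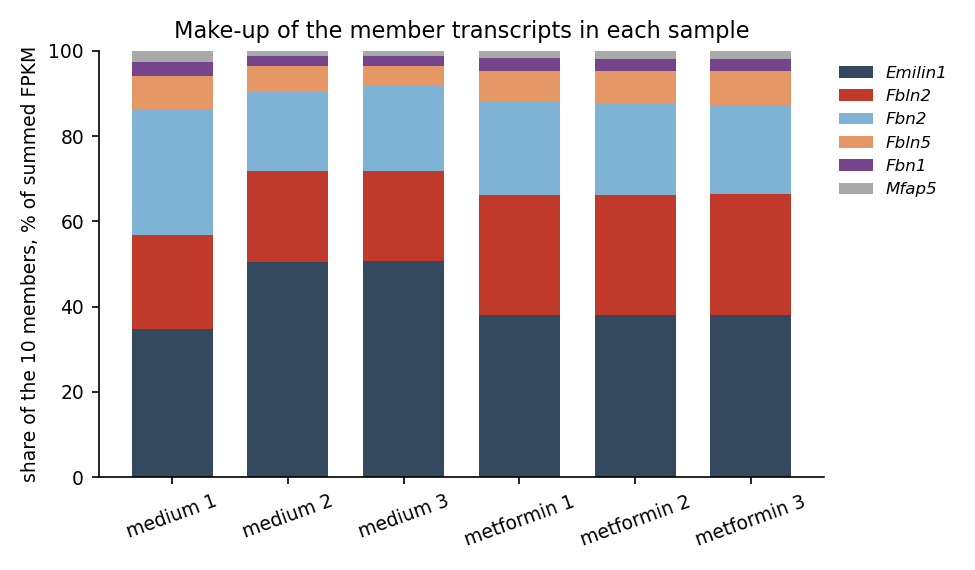
Share of each gene in the summed FPKM of the 10 members, in percent, with 1 bar per sample; the 4 members that were barely detected are too small to draw. The Fbln2 part is 28.1% to 28.3% in the metformin samples and 21.3% to 22% in the controls, and osteogenic medium replicate 1 differs from the other controls in Emilin1 and Fbn2.

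The members did not deviate alike in osteogenic medium replicate 1. It held the highest control value for Fbn1, Fbn2, Fbln5 and Mfap5, whose longest transcripts have a GC content of 46.9% to 52.6%, and the lowest for Fbln2 (57%) and Emilin1 (61.1%). With the GC correction, replicate 1 stayed the highest control for Fbn1 (2.84 against 2.36 and 2.50, as log2 levels) and Fbn2 (5.74 against 5.16 and 5.31), for Mfap5 (2.29 against 1.82 and 1.80) and for Fbln5 (3.72 against 3.69 and 3.42). It stayed the lowest for Emilin1 (6.32 against 6.47 and 6.45), and it became the highest for Fbln2 (5.51 against 5.29 and 5.31). The part of GC content in the member values was not tested beyond this correction, under which the same 4 members were called higher. The correction also moved the median log2 fold change of all tested genes from 0.0053 to -0.039.

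**Figure D4:**
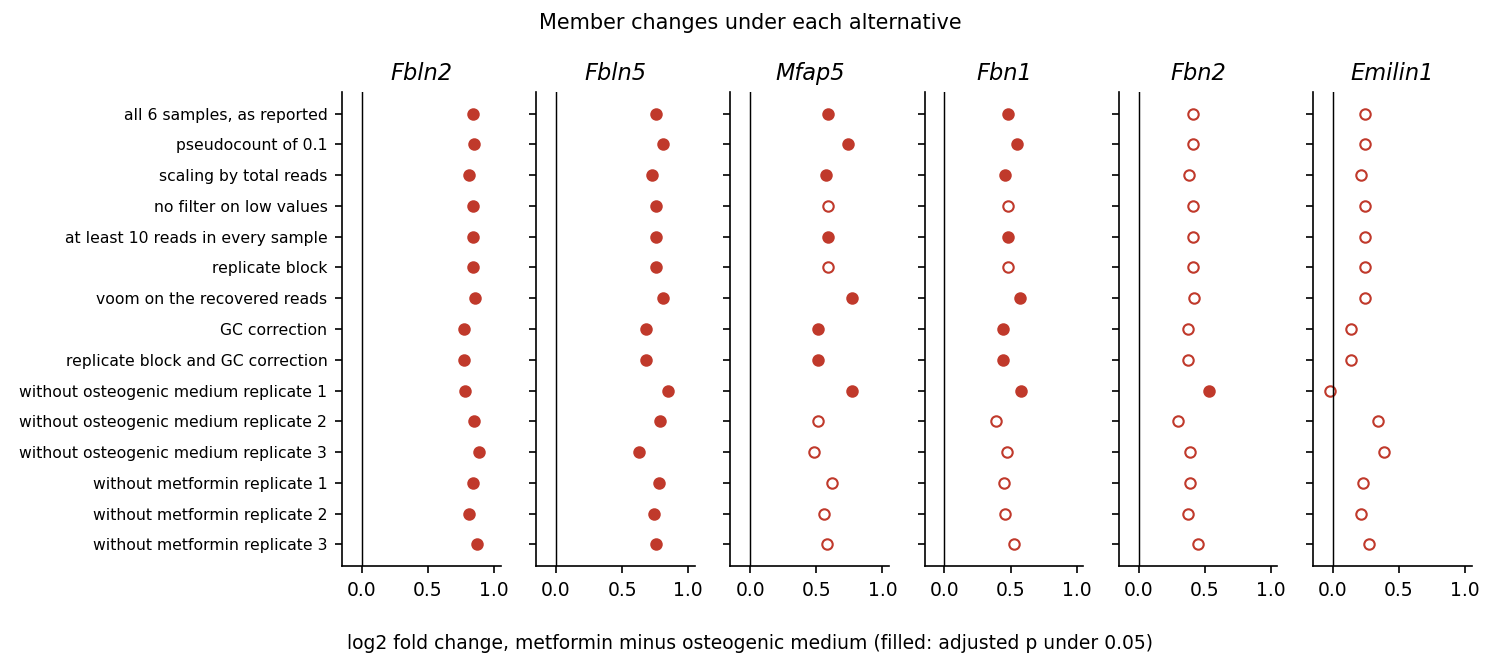
Log2 fold change of each tested member with all 6 samples and under each of the 14 alternatives, where a filled point marks an adjusted p under 0.05. Fbln2 and Fbln5 are filled throughout, Fbn1 and Mfap5 lose the call in 7 of 14 alternatives, Fbn2 gains it in 1, and Emilin1 crosses 0 without osteogenic medium replicate 1.

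Genes that assemble, crosslink, bind or degrade elastic fibres were read from a list of 38, chosen by role. Of these 24 were tested, 7 were called higher and 2 lower, and 14 were under the FPKM limit. The median log2 fold change over the 24 was 0.10. For the list's 7 higher and 2 lower of 24, the shares of all tested genes are 13.2% and 9.28%. The 7 higher genes came from the fibulins, the latent TGF-β binding proteins, the emilins, the lysyl oxidases and the ADAMTS-like proteins. Fbln7 and Thsd4 had a control mean under 0.5 FPKM and entered the test only through their level with metformin. Their calls are included in the 7 but are no separate support.

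Of the 5 other fibulins 2 were tested, and both were called higher. Of these, Fbln7 entered the test only through its level with metformin, so its call is no separate support. Efemp2, which brings lysyl oxidase to elastin, went from 65.5 ± 12.9 to 111 ± 4.97 FPKM (SD, n = 3), that is 0.78 in log2 (adjusted p = 0.0137), and it stayed called without 3 of the 6 samples, each left out in turn. Fbln7, a cell adhesion fibulin, went from 0.402 ± 0.0768 to 2.03 ± 0.415 FPKM, that is 1.10 in log2 (adjusted p = 0.0015). Of the 3 tested latent TGF-β binding proteins, which share the fibrillin fold and store TGF-β on microfibrils, Ltbp1 rose from 53.4 ± 6.04 to 92.7 ± 4 FPKM (log2 fold change 0.79, adjusted p = 0.00297). Ltbp3 and Ltbp4 were not called, with log2 fold changes of 0.052 (95% interval -0.37 to 0.47) and 0.18 (-0.082 to 0.44). Emilin2, the tested relative of Emilin1, rose from 11.5 ± 0.316 to 16 ± 0.566 FPKM (log2 fold change 0.44, adjusted p = 0.00744), and its adjusted p was 0.052 with the replicate block.

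Lysyl oxidases crosslink both elastin and collagen. Lox was the most abundant of the tested family, with 545 ± 98.6 FPKM in osteogenic medium and 441 ± 12.2 with metformin (SD, n = 3), and it was not called (log2 fold change -0.29, adjusted p = 0.201). Loxl4 rose from 17.2 ± 1.32 to 24.7 ± 0.716 FPKM (log2 fold change 0.50, adjusted p = 0.00812), a call kept in 4 of the 6 fits on 5 samples, while Loxl1 and Loxl3 were not called, at 0.06 and 0.29. The largest change of the list was that of Adamtsl3, a secreted protein of the ADAMTS-like family. It had 2.29 ± 0.504 FPKM without and 17.3 ± 0.674 FPKM with metformin, 7.56 times as much and 2.49 in log2 (adjusted p = 8.31e-05). Thsd4, an ADAMTS-like protein that binds fibrillin and promotes microfibril assembly, went from 0.186 ± 0.0635 to 0.965 ± 0.11 FPKM (log2 fold change 0.73, adjusted p = 0.00399). Like Fbln7, Thsd4 entered the test only through its level with metformin, so its call is no separate support. Adamts10, Adamtsl4 and Adamtsl5 were not called, with log2 fold changes from -0.26 to 0.11.

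Neither Furin, which cleaves the fibrillin precursors, nor Fkbp10, a chaperone of collagen and tropoelastin, was called, with log2 fold changes of -0.16 (95% interval -0.48 to 0.15) and 0.43 (0.055 to 0.81, adjusted p = 0.0989). Ctsa, which protects the other proteins of the elastin receptor complex, fell from 70.6 ± 8.77 to 53.5 ± 1.03 FPKM (log2 fold change -0.39, adjusted p = 0.0481). Its partners Glb1 and Neu1 were not called, with log2 fold changes of 0.15 and -0.21. Ctsa stayed called in only 1 of the 6 fits on 5 samples, and it overlaps Pltp, which had 23207 reads in all. Ctsk, cathepsin K, which degrades collagen and elastin, fell from 259 ± 14.8 to 155 ± 6.5 FPKM (log2 fold change -0.74, adjusted p = 0.00205). Mmp2, Mmp14 and Ctsl were not called, with log2 fold changes of 0.08, -0.30 and 0.061, and Mmp9, Mmp12 and Ctss were under the FPKM limit. Of these, Mmp9, gelatinase B, which was singled out after its values were seen, had 0, 3 and 2 reads in osteogenic medium and 29, 24 and 20 with metformin, and Mmp12 and Ctss had at most 1 read in a sample. Without osteogenic medium replicate 1, 7 genes of the list were lower in place of 2, with Adamtsl4, Adamtsl5, Furin, Mmp14 and Neu1 added. With the GC correction 8 were lower, which added Lox as well. Calls of all tested genes grew in the same fits. There 1177 were lower with all 6 samples, 2590 without that replicate and 2433 with the correction, and 1670, 2969 and 2062 were higher. Calls of higher genes were gained too, for Fkbp10 without that replicate (log2 fold change 0.26, adjusted p = 0.0165) and with the GC correction (0.36, adjusted p = 0.0116), and for Loxl3 with the correction (0.25, adjusted p = 0.0376).

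**Figure D5:**
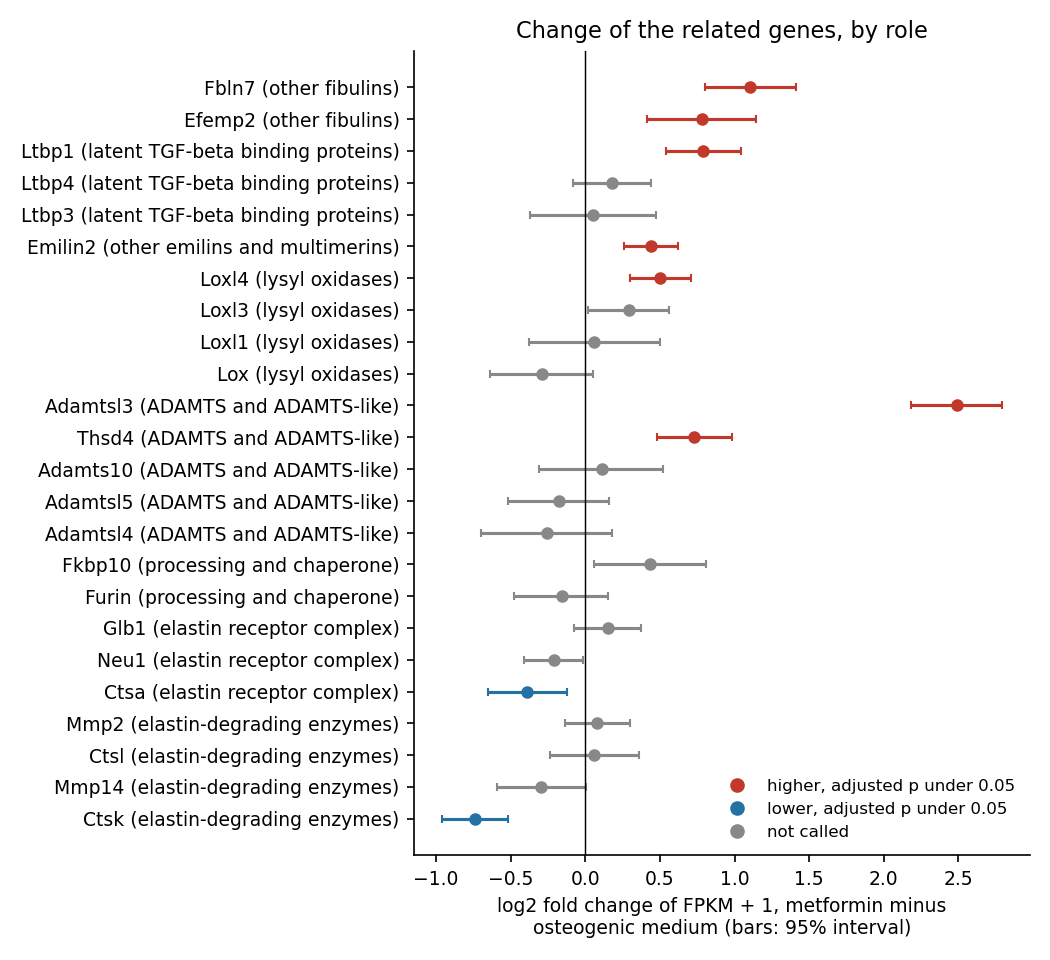
Log2 fold change of log2(FPKM + 1) with its 95% interval for the 24 tested related genes, grouped by role. Adamtsl3 stands apart at 2.49, and the 2 genes called lower are Ctsa and Ctsk, at -0.39 and -0.74.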

How the data were processed

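RNA sequencing was analysed in 6 samples, 3 per group, grouped by their treatment label, and the study's methods call them biological replicates. The authors deposited normalized values per gene, here taken as FPKM (reads scaled by gene length and by a library total), in 1 table that names no unit. The unit was inferred from the values: multiplied by the listed gene length, 100% of those above 0 fell on whole steps of their sample (within 0.01). Reads were recovered from these steps, 18399861 to 22111790 per sample. For these totals 3 reads are 1.4e-05% to 1.6e-05%, which covers counting error only. Columns of other samples numbered 0. The submitters' processing notes name Bowtie 0.12.2 and the builds mm8 and mm9, without roles. Of the table's 54532 identifiers, GENCODE M21 (GRCm38) holds 54495, and 53585 have its coordinates. Coordinates are the table's. The counting tool is not given in the sources used here.

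The groups were compared with limma 3.58.1 (R 4.3.3), with an intensity trend, on log2(FPKM + 1) over the 12681 genes whose mean FPKM reached 0.5. P-values were adjusted after Benjamini and Hochberg, and the threshold was 0.05. The pseudocount understates changes of low genes. The fit was tested on simulated data. Members, lists, pairs and motifs were chosen by name and with earlier results of these data known; all members are named, related genes where called, and the few others of a role beside them. Pair differences were tested by exact permutation (scipy 1.17.1). GC content came from the longest GENCODE M21 transcript (99.9% of tested genes) and near-identical transcripts from BLAST+ 2.17.0 (95% identity, 200 bases). Alternatives were another pseudocount (0.1), scaling by total reads, 2 other filters, the replicate block, voom on the recovered reads, a GC correction (a spline with 5 degrees of freedom per library), that with the block, and leaving out each replicate. Figures were drawn with matplotlib 3.10.9.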

Additional observations from a re-analysis of the deposited data

How the results depend on the processing

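Fbln2 and Fbln5 were called higher under all 14 alternatives, with adjusted p from 0.000199 to 0.0135 and from 0.00095 to 0.0395. Fbn1 and Mfap5 lost their call with no filter on low values (log2 fold changes 0.48 and 0.59, adjusted p = 0.0626 and 0.106) and with the replicate block (0.48 and 0.59, adjusted p = 0.057 and 0.0756), so 2 members were called under each. Over the 6 fits that left out a replicate, log2 fold changes were 0.39 to 0.58 for Fbn1, 0.48 to 0.77 for Mfap5, 0.30 to 0.53 for Fbn2 and -0.022 to 0.39 for Emilin1, and 2 to 5 members were called, 5 without osteogenic medium replicate 1 and 2 without any other. The labels do not pair the samples beyond a shared number, and the deviations of equally numbered samples were not correlated in a way that would pair them (r = -0.053, 0.00027 and -0.055). The block changed no other member's call. Related genes called higher were 4 to 8 and lower 1 to 7 over these fits, and lower 1 with no filter, 1 with the replicate block and 8 with the GC correction, and 9 were higher with no filter and with the GC correction. Of all tested genes 1670 were higher and 1177 lower, and 938 to 2969 and 495 to 2590 over the same fits; 698 were lower with the replicate block, 2433 with the GC correction and 1888 with both. The causes of these differences were not tested. Without a filter the adjustment ran over more genes, and in each fit without a replicate an arm had 2 samples. Of the latter fits, the one without osteogenic medium replicate 1 had the most calls, 2969 higher and 2590 lower. Depth limits Eln, Fbln1, Mfap2 and Mfap4, which had at most 8 reads in a sample.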

Other observations

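Beside Fbn2 and Fbn1, 4 other pairs of members were compared within samples as differences of log2(FPKM + 1). In each of them 1 gene had at most 4 reads in a sample, so the value follows mainly the other gene. The changes with metformin were 0.62 for Mfap5 to Mfap2, 0.85 for Fbln2 to Fbln1, 0.75 for Fbln5 to Eln and -0.47 for Eln to Fbn1, each with an exact two-sided permutation p of 0.1, the smallest that 3 against 3 samples can give. With a pseudocount of 0.1 the Mfap5 to Mfap2 change was 0.96 (exact permutation p = 0.2), as the few Mfap2 reads then weigh more.

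The SD over 3 samples was smaller with metformin than in osteogenic medium for 6 of the 6 tested members, although their mean levels were higher, and for 82.7% of all tested genes. For Emilin1 the higher mean rested on osteogenic medium replicate 1, at 56.8 FPKM against 94.9 and 101 FPKM in the other controls.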
